A study of Homo sapiens with 3 samples.

Results

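PRSS35 and PRSS23 encode a pair of secreted proteins of the trypsin fold, and they were followed here through RNA sequencing of Hep3B cells, an established human liver cancer line. The rows of both genes were taken from the deposited tables by gene symbol, which gave 2 of 61533 genes. The pair was chosen because PRSS35 was listed almost only with oxamate, so the levels of PRSS35 in the 3 libraries describe what chose it and are not tested; PRSS23 was taken as its closest relative. The 3 cultures were wild-type by their labels and were kept at 1% oxygen with sodium oxamate (for 48 hours by the design text), at 1% oxygen alone, or at 20% oxygen (normoxia). Oxamate inhibits lactate dehydrogenase, the enzyme that turns pyruvate into lactate; its dose is not given in the sources used here. Each condition is a single library; no difference below could be checked against replicates, and none carries a p-value. In bulk RNA, fewer cells that express a gene and less of its RNA per cell cannot be told apart.

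Trypsin-fold serine proteases cut peptide bonds with a triad of histidine, aspartate and serine, and many are made as inactive precursors that another protease cuts. PRSS23 and PRSS35 stand apart from the digestive and clotting enzymes of this fold, and in the mouse both are known from the ovary, where Prss35 is expressed around ovulation. PRSS35 is named an inactive serine protease in the deposited tables, because the position of the active-site serine holds a threonine. In liver cancer PRSS35 has nevertheless been reported to be cut by proprotein convertases and to cleave the chemokine CXCL2. PRSS23 keeps the full triad and is known for a role in the conversion of endothelial to mesenchymal cells in the developing heart valve of zebrafish.

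The coding sequences show how far the pair is alike and where it differs. Of 23 trypsin-fold genes with PRSS symbols that were aligned with PRSS35 through their translated codons, PRSS23 had the highest alignment score. Its alignment covered 372 codons, or 90.1% of the PRSS35 coding sequence, and 56.5% of the aligned bases were identical. The next gene by score, PRSS33, aligned over 40 codons, or 9.69% of PRSS35.

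The 3 sites below are printed from GENCODE 29 transcripts (build GRCh38, plus strand), because they bear on whether each transcript encodes a working protease. The first pair shows the codon of the active-site histidine in capitals, codon 169 of PRSS35 and codon 175 of PRSS23, and 31 of the 39 bases are identical between the genes.
PRSS35 histidine site, chr6:83523928-83523966: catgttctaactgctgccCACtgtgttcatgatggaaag
PRSS23 histidine site, chr11:86808148-86808186: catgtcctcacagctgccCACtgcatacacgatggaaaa
The second pair shows in capitals codon 316 of PRSS23, which encodes the active-site serine, and the aligned codon 346 of PRSS35, which encodes threonine; 29 of the 39 bases are identical.
PRSS35 serine site, chr6:83524459-83524497: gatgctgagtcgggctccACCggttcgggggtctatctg
PRSS23 serine site, chr11:86808571-86808609: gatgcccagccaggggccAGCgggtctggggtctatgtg
The third pair shows in capitals a run of 4 codons for arginine and lysine ahead of the catalytic part, the kind of basic run that furin-like convertases cut after; 24 of the 48 bases are identical.
PRSS35 basic run, chr6:83523778-83523825: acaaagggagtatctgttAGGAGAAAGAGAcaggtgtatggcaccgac
PRSS23 basic run, chr11:86807998-86808045: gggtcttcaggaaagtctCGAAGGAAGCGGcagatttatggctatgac
All 6 stretches lie in the coding part of an exon.

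PRSS35 was the gene with the larger difference by far. It had 1228 fragments (sequenced cDNA pieces assigned to the gene) in the library with oxamate, 0 in hypoxia alone and 12 in normoxia, so that 99.0% of its 1240 fragments came from the culture with oxamate. The deposited levels were 19.9, 0 and 0.191 FPKM, a unit that divides fragments by exon length and by library size. On the CPM scale, which divides by scaled library size alone, these were 49.1 with oxamate (95% Poisson interval 46.4 to 51.9), 0 in hypoxia and 0.464 in normoxia (0.240 to 0.810). The 0 in the hypoxia library was read against a floor of 3 fragments, or 0.108 CPM, and the upper end of its 95% Poisson interval was 0.133 CPM. The order from high to low was oxamate, normoxia, hypoxia. These intervals cover counting error only, not the spread between cultures.

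With the hypoxia count set to the floor of 3 fragments, PRSS35 was 453-fold higher with oxamate than in hypoxia alone. The lower end of its exact interval was 368-fold, and scaling by total fragments gave 434-fold at the same floor. The floored ratio ranked first of 11871 protein-coding genes with at least 50 fragments in either library. Against normoxia it was 106-fold higher (95% exact conditional binomial interval 60.3 to 205), which ranked 13 of 11855. A gene is counted below as higher or lower when the ratio is at least 2 and the higher library holds at least 50 fragments. By this rule PRSS35 was higher with oxamate than in hypoxia, as were 5.92% of 13739 genes, and higher than in normoxia, as were 15.4% of 13597; it was chosen on these contrasts, so nothing is read from that. Between hypoxia and normoxia it was 4.28-fold lower in hypoxia with the same floor, on 0 fragments against 12, with a lower interval end of 2.97-fold. These counts are under the minimum of the rule.

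PRSS35 with oxamate was not a trace signal. Its 19.9 FPKM lay above 87.4% of the 15344 protein-coding genes with a fragment in that library, where the median was 3.34 FPKM. In normoxia its 0.191 FPKM lay above 17.1% of 14717 such genes.

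PRSS23 was measured in every library and took another order. It had 1272 fragments with oxamate, 1872 in hypoxia alone and 808 in normoxia, or 4.40, 5.88 and 2.74 FPKM. In CPM these were 50.8 (48.1 to 53.7), 67.6 (64.6 to 70.8) and 31.2 (29.1 to 33.5), so that the counting intervals of the 3 libraries did not overlap and hypoxia alone stood highest. PRSS23 was above 55.7%, 61.6% and 42.4% of the detected protein-coding genes in these libraries.

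With oxamate, PRSS23 stood 1.33-fold below its hypoxia level (interval 1.24 to 1.43), which is under the 2-fold rule; 5.07% of the genes were lower by the rule in this comparison. Against normoxia it was 1.63-fold higher with oxamate (1.49 to 1.78), also under the rule. In hypoxia it was 2.17-fold higher than in normoxia (1.99 to 2.35), past the rule as were 10.8% of 13554 genes, and the lower end of the interval lay just under 2. With the trend of ratios on gene length removed, the ratio was 1.84, under the rule. The 3 comparisons share libraries and are not independent of one another.

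**Figure D1:**
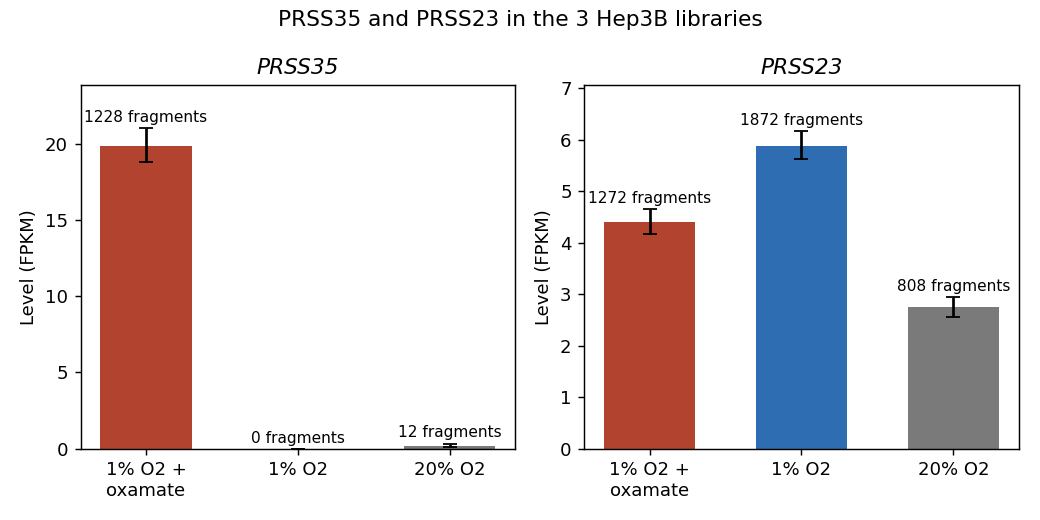
Deposited levels of PRSS35 and PRSS23 (FPKM, linear axes that differ between panels) in the libraries at 1% oxygen with oxamate, at 1% oxygen and at 20% oxygen, 1 library each; error bars are 95% Poisson intervals of the fragment count, which is printed above each bar, and none is drawn at 0. PRSS35 stands at 19.9 FPKM with oxamate and at 0 and 0.191 FPKM in hypoxia and normoxia, whereas PRSS23 is highest in hypoxia, at 5.88 FPKM.

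The pair therefore changed places by level per length. With oxamate the PRSS35 level in FPKM was 4.52-fold that of PRSS23, while in normoxia the PRSS23 level was 14.4-fold that of PRSS35. In hypoxia PRSS23 was 133-fold above PRSS35 with PRSS35 set to the floor of 3 fragments. This comparison depends on the exon length used for PRSS23. The tables sum 11444 exon bases for PRSS23, and its 9 annotated transcripts in GENCODE 29 include a coding one of 4015 bases. If all PRSS23 fragments came from that transcript, its level would be 12.5, 16.8 and 7.82 FPKM with oxamate, in hypoxia and in normoxia, and the PRSS35 level with oxamate would be 1.59-fold that of PRSS23. Which PRSS23 transcripts gave the fragments was not analysed here.

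The 2 loci also differ in how cleanly they can be counted. PRSS35 (ENSG00000146250_7, chr6:83512534-83525704 on the plus strand, hg38) has 1 annotated transcript of 2440 bases in GENCODE 29, and its exons overlap no other gene. PRSS23 (ENSG00000150687_12, chr11:86791059-86952910, plus strand) has 3 transcripts typed protein-coding, and some of its annotated forms run into FZD4, a Wnt receptor gene on the minus strand. The overlap with FZD4 takes 1399 exon bases, or 11.9% of the PRSS23 exons in GENCODE 29. Whether the counting used strand is not stated, so fragments from that stretch cannot be told apart between PRSS23 and FZD4. The description column of the PRSS23 row names the protein of another gene, so the row was identified by its symbol, identifier and position.

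**Figure D2:**
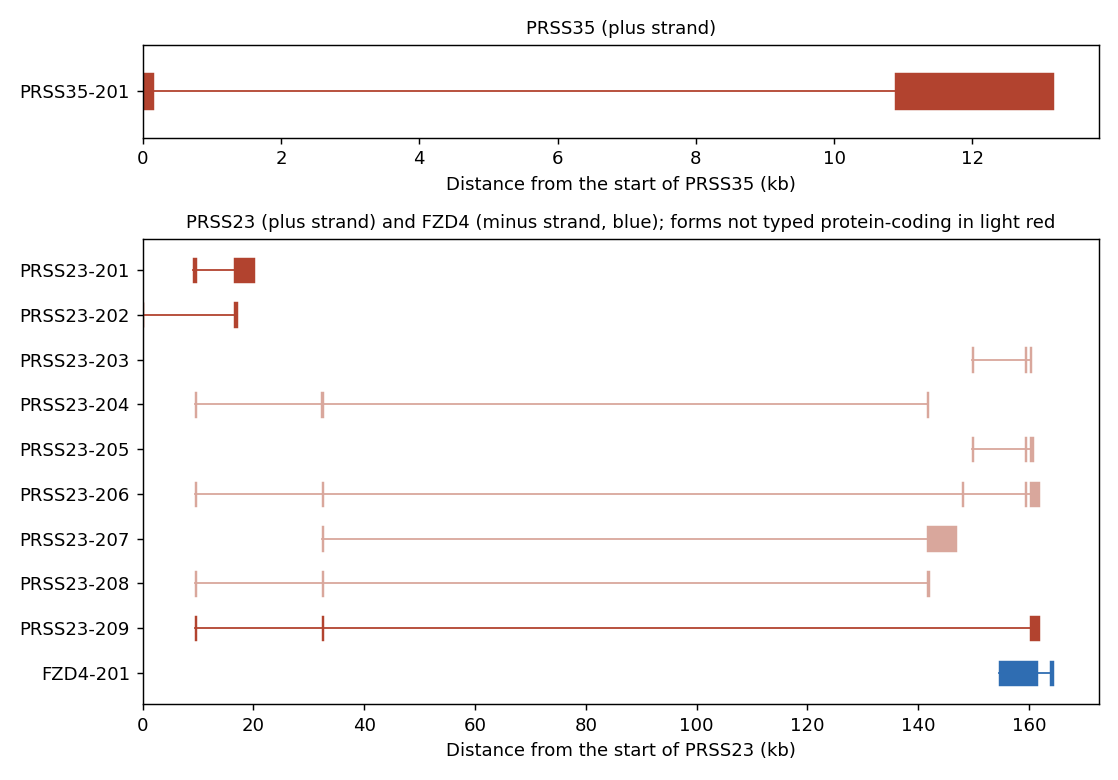
Annotated transcripts (GENCODE 29) of PRSS35, and of PRSS23 with the overlapping gene FZD4, against distance from the start of PRSS35 or PRSS23 in kb; boxes are exons and lines are introns. PRSS35 has 1 transcript, whereas 9 transcripts are annotated for PRSS23, and exons at the end of some of these overlap the large exon of FZD4.

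Against hypoxia, FZD4 was higher with oxamate where PRSS23 stood lower; against normoxia both stood higher. It had 979 fragments with oxamate, 456 in hypoxia and 503 in normoxia. FZD4 was 2.38-fold higher with oxamate than in hypoxia (2.12 to 2.66) and 2.01-fold higher than in normoxia (1.81 to 2.25), a ratio that was 1.88 with the gene length trend removed and 1.98 with the deposited FPKM. The part of the shared exon bases in the values of either gene was not tested.

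No measured gene beside PRSS35 was as near to 0 in hypoxia and normoxia and as high with oxamate. PRSS35 was chosen for this rare pattern, so nothing about the locus is read from that. Of 19854 protein-coding genes, 20 had at most 12 fragments in hypoxia and in normoxia and at least 50 with oxamate. Of 19 annotated genes within 1 Mb of PRSS35, 10 are protein-coding, and 7 of these had at least 50 fragments with oxamate or in hypoxia. Of the 7, 1 was higher with oxamate and 1 lower, where 5.04% and 4.79% of all protein-coding genes tested were. The genes of other types held 5 fragments in all. SNAP91, a synaptic vesicle gene 27.2 kb away, had 0 fragments with oxamate, 1 in hypoxia and 5 in normoxia, and the developmental gene RIPPLY2 and the melanocortin receptor partner MRAP2 were listed at 0 in every library. The nearest expressed gene was ME1, the cytosolic malic enzyme that makes NADPH, 81.5 kb to the left. ME1 had 1987 fragments with oxamate, 565 in hypoxia and 1355 in normoxia, and was 3.89-fold higher with oxamate than in hypoxia (3.54 to 4.28). ME1 had the same order of libraries as PRSS35, but was well expressed in all 3, and its ratio of oxamate to normoxia was 1.52. The ubiquitin ligase gene UBE3D was lower with oxamate, on 56 fragments against 128 in hypoxia, a ratio of 0.484 (0.347 to 0.668). The remaining 5 lay within the rule: DOP1A, PGM3, RWDD2A, CYB5R4 and CEP162 had ratios from 0.792 to 1.32.

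Of 9 protein-coding genes within 1 Mb of PRSS23, 6 had at least 50 fragments in hypoxia or with oxamate, and FZD4 alone of these was past the rule in that comparison. The clathrin assembly gene PICALM stood at 1.25-fold higher with oxamate, the Polycomb gene EED at 1.16-fold lower, HIKESHI, an importer of heat shock proteins, at 1.13-fold lower and TMEM135 at 1.18-fold lower. SYTL2, a vesicle trafficking gene, had 131 fragments with oxamate, 79 in hypoxia and 19 in normoxia. ME3, a mitochondrial malic enzyme gene, had 5, 4 and 2 fragments in these libraries, and CCDC81 had 0, 5 and 13, all under the minimum. SYTL2 was the only gene of the 6 past the rule between hypoxia and normoxia, at 3.89-fold higher in hypoxia (2.33 to 6.79), where 8.12% of all protein-coding genes tested were higher.

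**Figure D3:**
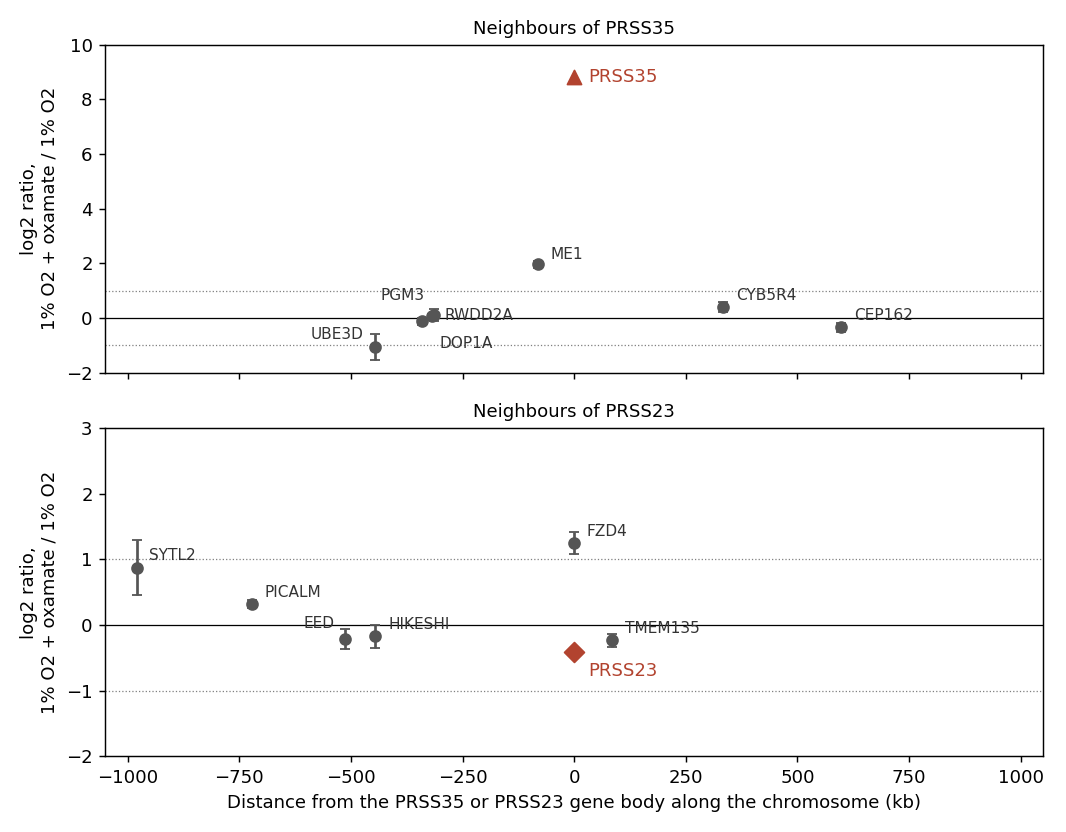
Ratios of 1% oxygen with oxamate to 1% oxygen alone (log2) of protein-coding genes within 1 Mb of PRSS35 and of PRSS23, against distance in kb; circles are neighbours with 95% counting intervals, the triangle is PRSS35 with hypoxia set to the floor and the diamond is PRSS23, and dotted lines mark 2-fold. PRSS35 lies at 8.82 while its neighbours lie between UBE3D and ME1, and beside PRSS23 only FZD4 lies past 2-fold.

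PRSS35 was chosen for being listed almost only with oxamate, so its place among such genes is given as a description. With a limit of 3 fragments in each of the other libraries and at least 50 with oxamate, there were 8 genes, of which 1 is protein-coding, CCDC85A, with 54, 2 and 2 fragments; its exons overlap other genes over 56.8% of their bases, so its value is uncertain. PRSS35 itself falls outside that limit through its 12 fragments in normoxia. With the limit set to 12, after its value was seen, there were 33 genes, 20 of them protein-coding, with a median of 62 fragments with oxamate, and PRSS35 had the most fragments and the highest FPKM of the 20. The next in that list, also named after their values were seen, were AKR1B1 with 676 fragments with oxamate, 10 in hypoxia and 2 in normoxia, and the secreted factor gene NDNF with 101, 6 and 0.

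Likeness of pattern was measured as the distance between centred log2 (CPM + 0.1) levels over the 3 libraries, among 12033 protein-coding genes with at least 50 fragments in a library. The 5 genes nearest to PRSS35 were BOLA2B (297, 2 and 17 fragments with oxamate, in hypoxia and in normoxia), AKR1B1, EDNRB (681, 24 and 22), MID2 (78, 2 and 13) and FHIP1A (364, 27 and 20), at distances of 2.17 to 3.66 log2 units. AKR1B1 encodes aldose reductase, which makes sorbitol from glucose, and EDNRB encodes an endothelin receptor. BOLA2B has a near-identical copy, so its value is uncertain. None of the 5 was as high per length with oxamate as PRSS35, at 0.408 to 8.59 FPKM against 19.9 FPKM.

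PRSS23 had far closer companions, at distances of 0.00907 to 0.0283. They were the semaphorin co-receptor gene PLXNA2 (1119, 1656 and 717 fragments with oxamate, in hypoxia and in normoxia), the metalloprotease gene ADAMTS9 (213, 313 and 132), the lysophospholipid acyltransferase gene LPCAT1 (3704, 5428 and 2398), AGER (233, 351 and 147) and a gene with no symbol in the tables (34, 50 and 20). The 5 were picked for this likeness, so their shared order of libraries is a description.

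**Figure D4:**
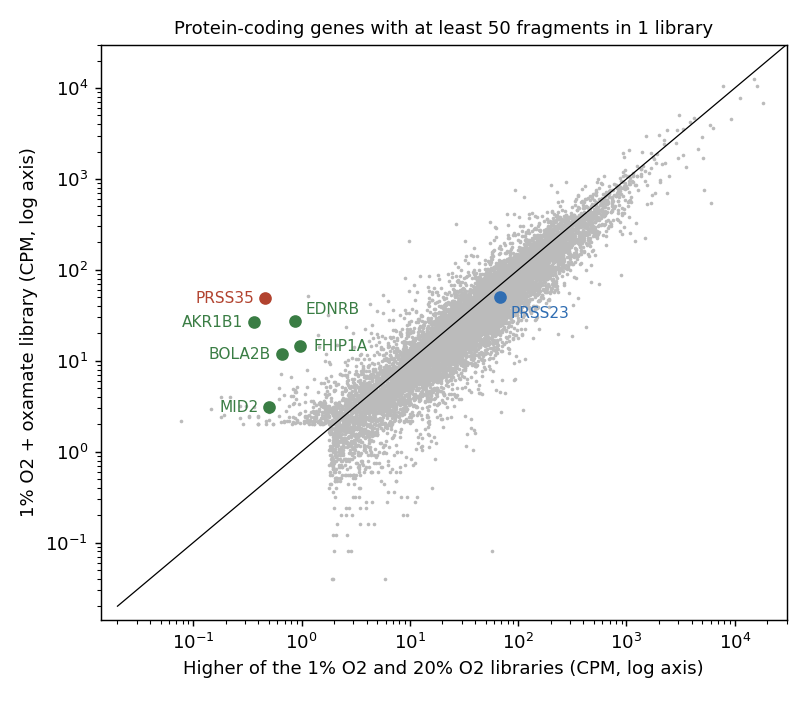
Level at 1% oxygen with oxamate against the higher of the levels at 1% oxygen alone and at 20% oxygen (CPM, log axes), for protein-coding genes with at least 50 fragments in a library; the line marks equal levels, and green points are the 5 genes nearest to PRSS35 in pattern. PRSS35 lies far above the line at 49.1 CPM with oxamate, and PRSS23 lies just below it.

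Of 22 other protease genes with PRSS symbols on the list, 3 had at least 50 fragments in hypoxia or with oxamate. Of these, 0 were higher or lower with oxamate than in hypoxia, beside 5.92% of all genes higher and 5.07% lower. Their median log2 ratio was 0.75 against -0.01 over all genes tested. PRSS53 had 180 fragments with oxamate, 103 in hypoxia and 41 in normoxia, PRSS12 (motopsin) had 313, 206 and 146, and PRSS22 (tryptase epsilon) had 199, 153 and 69. All 3 were higher with oxamate than in normoxia, at 4.54-fold, 2.22-fold and 2.98-fold, where 15.4% of all genes were. PRSS53 and PRSS22 were also higher in hypoxia alone than in normoxia, at 2.35-fold and 2.07-fold. The exons of PRSS53 overlap other genes over 41.4% of their bases, so its value is uncertain. The pancreatic trypsin genes PRSS1 and PRSS2 were listed at 0 in every library. Of the 4 HtrA protease genes only HTRA2, a mitochondrial protease, had enough fragments, and it stood at 1.09-fold higher with oxamate than in hypoxia. The exons of HTRA2 overlap other genes over 36.9% of their bases, so its value is uncertain too.

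Of 5 membrane-anchored serine proteases measured of 18, 0 were higher and 1 was lower with oxamate than in hypoxia. The median log2 ratio of the 5 was -0.78, against -0.01 over all genes tested. Of all genes, 5.92% were higher and 5.07% lower, and 1 of 5 is too small a count to set against these shares. The lower one was TMPRSS6, matriptase-2, which restrains hepcidin; it had 122 fragments with oxamate, 1172 in hypoxia and 786 in normoxia, a difference of 8.68-fold between oxamate and hypoxia (7.20 to 10.6). HPN (hepsin) was the most abundant per length of these with oxamate and in hypoxia, at 44.3 FPKM with oxamate, 76.6 in hypoxia and 26.6 in normoxia, and its ratio of oxamate to hypoxia was 0.582. The same ratio was 0.858 for ST14 (matriptase), 0.897 for TMPRSS2 and 0.580 for TMPRSS9, all within the rule. Secreted plasma and pericellular proteases went both ways, with 2 of 17 measured higher than in hypoxia, 6 lower and a median of -0.58, beside 5.92% of all genes higher and 5.07% lower. Against normoxia, 1 of 16 was higher and 9 were lower, where 15.4% and 15.3% of all genes were. PLAU, the urokinase that activates plasminogen, had 193 fragments with oxamate, 10 in hypoxia and 119 in normoxia, and was 21.4-fold higher with oxamate than in hypoxia (11.4 to 45.2). MASP1, a complement lectin pathway protease, was 4.28-fold higher (4.15 to 4.40), while CFI (complement factor I) was 3.75-fold lower (2.77 to 5.17) and F10 (coagulation factor X) 2.63-fold lower (2.41 to 2.87). PLAU and CFI overlap other genes over 31.1% and 32.04% of their exon bases, which makes their values uncertain.

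The proprotein convertases, the enzymes that cut after basic runs such as those printed above, were expressed with exceptions: 7 of the 9 listed had at least 50 fragments with oxamate or in hypoxia, PCSK1 had 6, 5 and 1 fragments with oxamate, in hypoxia and in normoxia, and PCSK2 had 0 in all 3. Of the 7 measured, 1 was higher with oxamate than in hypoxia and 0 lower, beside 5.92% and 5.07% of all genes, with a median log2 ratio of -0.15. That one was PCSK5, at 1420 fragments with oxamate, 694 in hypoxia and 671 in normoxia, or 2.26-fold higher than in hypoxia (2.07 to 2.48). FURIN was the most abundant, at 145, 104 and 71.4 FPKM, and stood at 1.40-fold higher with oxamate than in hypoxia (1.37 to 1.43) and 2.06-fold higher than in normoxia (2.01 to 2.11). The ratio of oxamate to hypoxia was 0.739 for PCSK4 and 0.834 for PCSK6, within the rule.

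CXCL2, the chemokine that PRSS35 has been reported to cleave, was low, with 37 fragments with oxamate, 28 in hypoxia and 71 in normoxia. Its ratio of oxamate to hypoxia was 1.46 with an interval of 0.871 to 2.48, and it was under the minimum of the rule in that comparison. CXCL2 was 2.71-fold lower in hypoxia than in normoxia (1.73 to 4.37), where 8.07% of all genes tested were lower. Of the 7 chemokines that signal through CXCR2, 5 were measured between oxamate and hypoxia, of which 1 was higher and 0 lower (median 0.11), beside 5.92% and 5.07% of all genes. CXCL8 was the higher one, with 4528 fragments with oxamate, 1877 in hypoxia and 716 in normoxia, and a ratio of 2.67 (2.53 to 2.82). CXCL1 stood at 1.61-fold higher, CXCL3 at 1.18-fold lower and CXCL5 at 1.82-fold lower. CXCL1, CXCL2 and CXCL3 are close copies of one another, so fragments may be divided uncertainly between them.

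Serine protease inhibitors had 2 of 12 measured members higher and 2 lower with oxamate than in hypoxia, with a median of 0.31, beside 5.92% and 5.07% of all genes. Against normoxia, 6 were higher and 2 lower, beside 15.4% and 15.3% of all genes. SERPINB8 was 3.07-fold higher (2.51 to 3.77) and SERPING1, the C1 inhibitor, 2.05-fold higher (1.72 to 2.46), a ratio that fell to 1.97 when libraries were scaled by total fragments. SERPINF2, the plasmin inhibitor, was 2.62-fold lower (2.36 to 2.93) and SERPIND1, heparin cofactor II, 2.31-fold lower (2.16 to 2.47). Of the receptors that proteases activate by cutting, F2RL1 stood at 1.54-fold higher with oxamate than in hypoxia and F2R at 1.01-fold. So 0 of 2 measured were past the rule, beside 5.92% of all genes higher and 5.07% lower. F2R was 2.09-fold higher with oxamate than in normoxia and 2.07-fold higher in hypoxia than in normoxia, where 15.4% and 10.8% of all genes were higher.

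Steroid receptors are listed because progesterone acts on Prss35 in the mouse ovary and estrogen on PRSS23 in human breast cancer cells. PGR, the progesterone receptor gene, had 1 fragment with oxamate and 0 in the other libraries. ESR2, the gene of estrogen receptor beta, was low but was the receptor past the rule. It had 113 fragments with oxamate, 24 in hypoxia and 5 in normoxia, or 5.21-fold higher than in hypoxia (3.33 to 8.46). ESR1, the gene of estrogen receptor alpha, went the same way on fewer fragments, with 34, 10 and 6. Its ratio of oxamate to hypoxia was 3.76 (1.82 to 8.54), under the minimum of the rule. The glucocorticoid receptor gene NR3C1 stood at 1.80-fold higher with oxamate than in hypoxia and NR3C2 at 1.23-fold. Of 3 measured, 1 was higher and 0 lower, beside 5.92% and 5.07% of all genes.

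**Figure D5:**
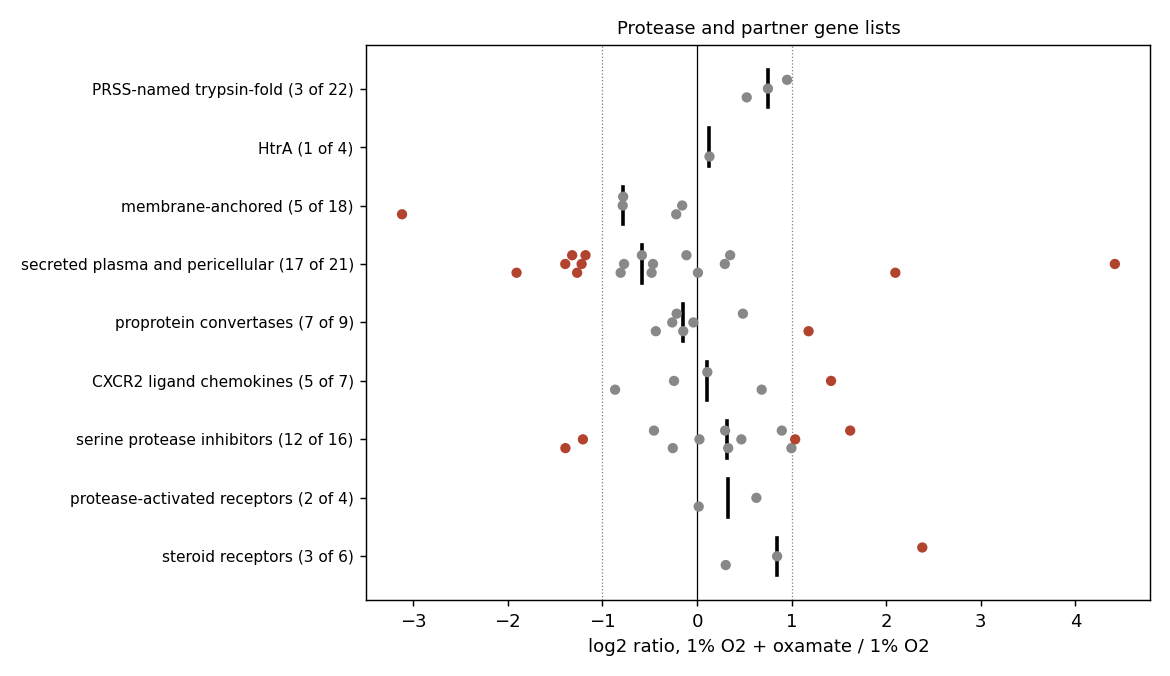
Ratios of 1% oxygen with oxamate to 1% oxygen alone (log2) for the measured genes of each list, with the number measured and listed in brackets; each point is a gene, red points lie past 2-fold, and the black bar is the median of the list. None of the 3 other PRSS genes lies past 2-fold, and PLAU and TMPRSS6 lie farthest out on either side.

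Over the whole series, the libraries held 24826365 fragments with oxamate, 26309340 in hypoxia and 27412147 in normoxia. All 8 Hep3B and liver cell markers, among them AFP and ALB, were detected in every library. Their summed level was 11784 CPM with oxamate, 20529 CPM in hypoxia and 32097 CPM in normoxia. ALB was the largest part, at 6809, 8887 and 18298 CPM. TF took another order than the sum, at 1706, 5054 and 1494 CPM, while the other markers kept it. Endothelial markers, given because PRSS23 is known from endothelium, summed to 20.4 CPM with oxamate, 8.56 CPM in hypoxia and 1.55 CPM in normoxia, with 4, 4 and 3 of 6 detected, nearly all from PECAM1, and CDH5 and KDR were at 0 with oxamate and in hypoxia. The 6 fibroblast and stellate cell markers summed to 30.3, 35.7 and 30.5 CPM in the same order, with 5, 5 and 4 detected. They went different ways: LUM had 580 fragments with oxamate, 412 in hypoxia and 397 in normoxia, and DCN had 0 in every library. PDGFRB had 110, 438 and 315 and COL1A1 had 51, 130 and 76. Both were lower with oxamate than in hypoxia by the rule, as were 5.07% of all genes. The 5 blood cell markers summed to 60.9, 32.6 and 42.7 CPM, with 3, 2 and 2 detected and CD3E and HBB at 0. LYZ was the largest part, at 59.9, 31.8 and 37.3 CPM. Its exons overlap other genes over 34.0% of their bases, so its value is uncertain. CD14 went another way, with 17 fragments with oxamate, 22 in hypoxia and 140 in normoxia. Against normoxia CD14 was 7.97-fold lower with oxamate and 6.81-fold lower in hypoxia, where 15.3% and 8.07% of all genes were lower. The 6 granulosa and luteal cell markers summed to 2.16, 3.00 and 2.44 CPM, with 3 detected in each library and FSHR, LHCGR and HSD3B2 at 0. The part of these levels in the values of PRSS35 and PRSS23 was not tested, and with 1 library per condition a difference between cultures and a difference between conditions cannot be told apart.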

How the data were processed

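Hep3B RNA (3 µg per sample, selected on poly-T beads per the labels' protocols) was sequenced as 1 library for each of the 3 conditions. The deposited tables give 1 value per gene with its coordinates and summed exon length, per the file headers, which name no unit. The deposited values were read as FPKM from how they scale with exon length. Tools listed in the submitters' processing notes, without their roles, include featureCounts 1.5.0-p3, HISAT2 2.0.5 and StringTie 1.3.3b, and the build named there is hg38; strand use is not given in the sources used here.

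FPKM times exon length was a whole multiple of 1 constant per library (100% of values above 0 within 0.01), and these whole numbers were used as fragments. Genes with at least 10 fragments in all (21987) set scaling by the trimmed mean of M values (30% of log ratios and 5% of levels trimmed), with factors of 1.01, 1.05 and 0.943 for oxamate, hypoxia and normoxia. Ratios have 95% Clopper-Pearson intervals; without molecular identifiers a fragment need not be a separate molecule, and both intervals and floors describe counting error alone. A count of 0 was set to 3. List medians add 0.5 to each count. Gene types came from GENCODE 29 (58312 of 61533 genes matched). Python 3.11.15, numpy 2.4.6, scipy 1.17.1, pandas 2.3.3, statsmodels 0.14.6 and biopython 1.88 were used. The procedure was checked on counts simulated from the hypoxia library, with counting error alone and a small set of changed genes. That check does not cover spread between cultures or changes as widespread as those between these libraries. Coding sequences were translated and the translations aligned locally with BLOSUM62. Codons were paired through that alignment, so the alignment scores are scores of the translations. No reference protein sequences were used, and the translated coding sequences took the place of the planned protein comparison.

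The genes, lists and rules were chosen with earlier results of these data known. Named were the pair, protein-coding genes within 1 Mb with at least 10 fragments, the 5 nearest in pattern, genes almost only with oxamate, and per list the 2 highest and 2 lowest ratios of oxamate to hypoxia among those with at least 50 fragments. CXCL2, HPN, PRSS1, PRSS2, FURIN, PGR, ESR1, SNAP91, NDNF, some cell markers and listed genes at 0 were named besides.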

Additional observations from a re-analysis of the deposited data

How the results depend on the processing

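The ratios of PRSS35 and PRSS23 kept their direction in all 48 recomputations, and 45 lay within the counting interval. PRSS35 with oxamate ranged from 8.76 to 10.41 (log2) against hypoxia, the highest value with a floor of 1 fragment, and from 6.70 to 6.91 against normoxia; in hypoxia against normoxia its floored value ranged from -3.68 to -1.92. PRSS23 left its interval with the gene length trend removed, at log2 0.44 for oxamate against normoxia and 0.88 for hypoxia against normoxia (under 2-fold), and with total fragments at 1.27 for the last; the cause was not tested. Total fragments moved the median of all genes by 0.16 (log2) between hypoxia and normoxia, with 1775 genes higher and 751 lower in place of 1468 and 1094; for oxamate against hypoxia it gave 722 and 802 in place of 813 and 697. The counts of genes past the rule moved with its limits by construction. For oxamate against hypoxia, with 813 higher and 697 lower, they were 1880 and 1895 at 1.5-fold, 307 and 222 at 3-fold, 2079 and 1867 with 10 fragments, and 491 and 307 with intervals wholly past 2-fold. For oxamate against normoxia, with 2090 and 2080, they were 3306 and 3905 at 1.5-fold, 1143 and 718 at 3-fold, and 4350 higher with 10 fragments. For hypoxia against normoxia they were 2530 and 2970 at 1.5-fold, 731 and 297 at 3-fold, 3618 and 1773 with 10 fragments, and 944 and 665 with intervals wholly past 2-fold. Of 931 recomputed ratios of the other named genes, chosen after seeing the data, 0 changed direction past the rule and 13 changed their side of it. Depth limits ratios with few fragments on one side, such as the 12 of PRSS35 in normoxia. No paired analysis was possible because each condition had 1 library.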
